A study of Mus musculus with 6 samples.

Results

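The genes described here belong to the integrated stress response and the unfolded protein response. They are the rows of the deposited table for Atf3, Atf4, Atf5, Atf6, Ddit3, Trib3, Chac1, Asns, Xbp1 and Herpud1. Of these 10 genes 8 are rows of the table, which holds 12968 genes in all, and Atf3 and Trib3 are not analysed here. RNA bound to ribosomes came from the middle section of a mouse brain hemisphere. It was isolated by RiboTag immunoprecipitation, in which ribosomes carrying an epitope-tagged Rpl22 protein are pulled down from cells that express Cre recombinase, and was sequenced as polyA RNA. The MCAO group had 3 animals whose middle cerebral artery was occluded for 1 h, and the control group had 3 animals without occlusion; the left hemisphere was used in both, and animals were killed after 3 days. No sham operation, Cre driver, strain, age or sex is given in the labels, and the series title names astrocytes as the cells studied. Each library stands for 1 animal, from 2 technical replicates.

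When unfolded proteins build up in the endoplasmic reticulum, or amino acids or haem run short, cells phosphorylate the initiation factor eIF2 and slow protein synthesis. Upstream reading frames in the Atf4 transcript then let more ATF4 protein be made, and ATF4 switches on genes for amino acid supply and, with persistent stress, the cell death regulator CHOP, encoded by Ddit3. Damage in the endoplasmic reticulum also acts through the membrane sensors ATF6 and IRE1, the latter by splicing Xbp1 RNA, and raises chaperones and factors that dispose of misfolded proteins. Ischemia of the brain is a known trigger of both responses. The values here are totals of ribosome-bound RNA per gene, so they hold neither the amount of protein nor the spliced share of Xbp1.

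Some of these genes are known to be switched on through short DNA elements near their starts, by ATF4 with C/EBP partners or by the factors of endoplasmic reticulum stress. The stretches that hold such letters are shown here so that the genes with and without them can be compared. In the RefSeq promoter table (build GRCm38.p6) 9 of the 10 genes had an entry, Atf5 with 2 starts, which gave 10 promoters. The 250 bases before each start were searched on both strands, so a gene without a match there may still hold an element elsewhere. The core of the C/EBP-ATF response element, TGATGNAA, was found in 4 of these 10 promoters and in 3.45% of all 32851 promoters of the table. In the lines that follow, capitals mark the match, and the flanks are 20 bases long unless the start comes sooner. Each is written 5′ to 3′ on the gene's own strand, which reads the element in reverse in all but Asns.
Asns, chr6:7693210-7693252, minus strand: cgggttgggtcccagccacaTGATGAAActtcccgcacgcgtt
Chac1, chr2:119351029-119351076, plus strand: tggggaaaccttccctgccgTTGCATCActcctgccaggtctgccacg
Herpud1, chr8:94386297-94386344, plus strand: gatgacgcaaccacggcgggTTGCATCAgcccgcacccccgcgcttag
Atf3, chr1:191183416-191183463, minus strand: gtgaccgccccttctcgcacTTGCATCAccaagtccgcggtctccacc
The matches begin 23, 193, 112 and 110 bases before the start of Asns, Chac1, Herpud1 and Atf3.

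Herpud1 also held the endoplasmic reticulum stress response element II, in which ATTGG and CCACG are 1 base apart on either strand. It begins 52 bases before its start, and the element was found in 10 of the 32851 promoters (0.0304%). This element, and the longer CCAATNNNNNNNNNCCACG, were added to the search after the sequences had been seen.
Herpud1, chr8:94386357-94386407, plus strand: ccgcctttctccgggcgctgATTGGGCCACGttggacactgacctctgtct
The longer element was in 0 of the 10 promoters and in 0.113% of all. The whole cAMP response element, TGACGTCA, was in 0 of the 10 and in 1.55% of all, and its first bases, TGACG, which lie within it, were in 6 of 10 and in 17.8% of all. The shorter elements CCACG and CCAAT, which also lie within the stress response elements, were in 5 of 10 promoters each, against 28.3% and 33.8% of all. These matches are letters in a window and were not measured as binding.

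None of the 8 measured genes passed the test for a difference between MCAO and control animals. With limma over 12549 genes, 0 of 8 were called at an adjusted p under 0.05, in a comparison that called 3.08% of all tested genes, 2.3% as higher and 0.789% as lower. At an unadjusted p under 0.05 there was 1 of the 8, Atf5, against 19.3% of all tested genes. On the reads recovered from the values, edgeR and DESeq2 also called 0 of 8, where they called 4.14% and 4.38% of all genes. The 2 groups did not overlap in 2 of the 8, Atf5 and Herpud1, which was so for 24.9% of all tested genes. The log2 changes of the 8 ran from -0.23 to 0.67, with a median of 0.11, beside -0.01 over all tested genes. A change of at least 1 in size was found in 0 of the 8 and in 4.97% of all tested genes. Every value below is a scaled read count, meaning reads per gene divided by 1 factor per library. Log2 changes are MCAO minus control on log2(scaled read count + 1), and each interval is the 95% interval of the moderated test.

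**Figure D1:**
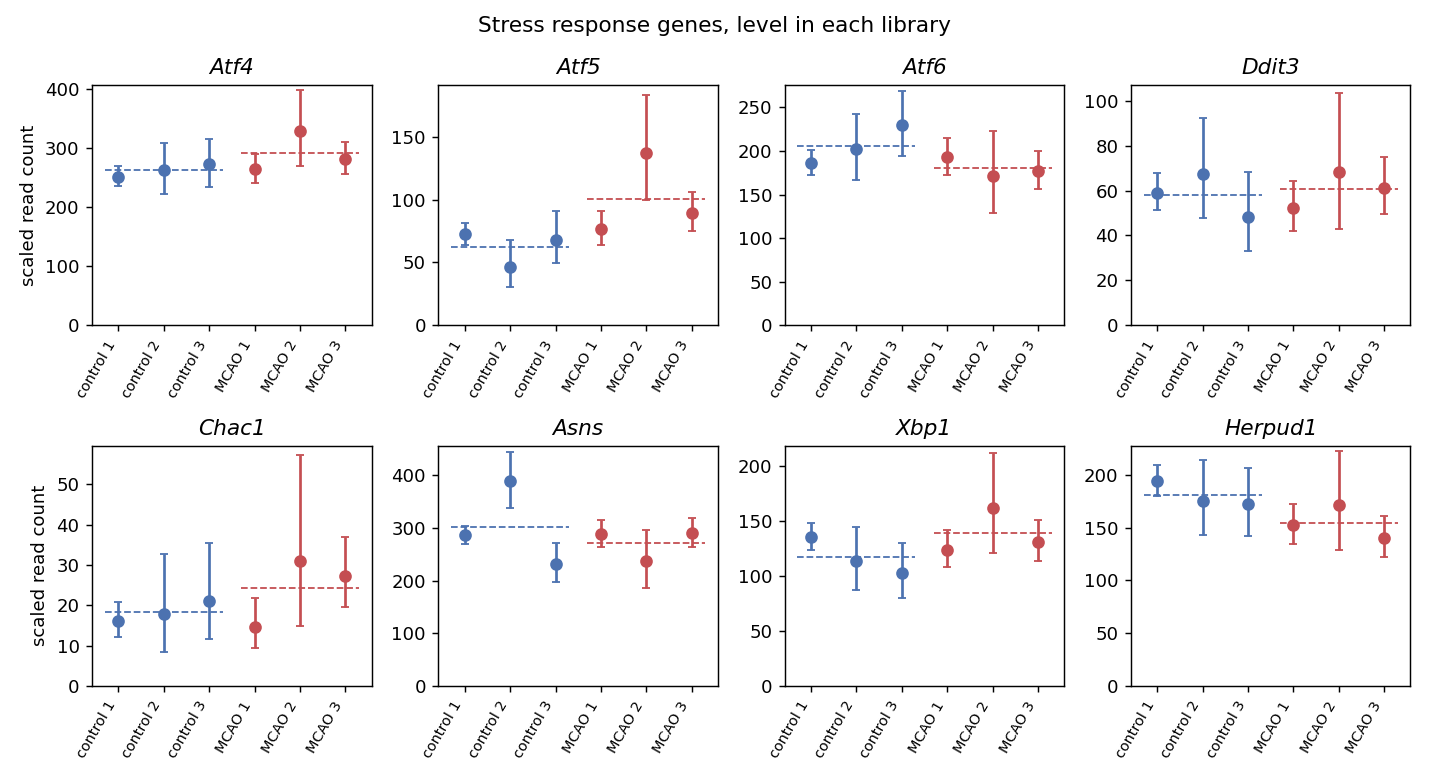
Scaled read count of each measured gene (y axis, from 0) in each of the 6 libraries (x axis), with bars for the exact 95% Poisson interval of the recovered reads (counting error only) and dashed lines for the group means. Controls are blue and MCAO libraries red; only in Atf5 and Herpud1 do the 2 groups not overlap, and the bars are widest in MCAO 2, the shallowest library.

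Atf4 (chromosome 15, 80255184 to 80257545), the transcription factor that carries the integrated stress response, stood at 252, 263 and 273 in controls 1, 2 and 3 and at 265, 329.7 and 282 in MCAO 1, 2 and 3. The groups overlapped, with MCAO 1 inside the control range and MCAO 2 the highest of all libraries. The means were 263 ± 10.5 and 292 ± 33.6 (SD, n = 3 each), and the log2 change was 0.15 (SE 0.15, interval -0.17 to 0.47, limma adjusted p = 0.621). Atf4 had 106 to 876 reads per library, so it was among the better counted of these genes. At that spread a change of 0.58 would have been needed for a call, and the upper end of the interval lies under it.

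Atf5 encodes a relative of ATF4 whose translation is also set by upstream reading frames and which takes part in the stress response of mitochondria. It showed the largest difference of the 8. Its values were 72.2, 46.1 and 67.9 in controls and 76.5, 136.9 and 89.3 after MCAO, so that all 3 MCAO libraries lay above all 3 controls, MCAO 1 only just. The means were 62.1 ± 14.0 and 101 ± 31.8 (SD, n = 3 each), and the log2 change was 0.67 (SE 0.26, interval 0.12 to 1.23) with an adjusted p of 0.174 by limma. The change was smaller without the 2 shallowest libraries. It was 0.43 without MCAO 2, where Atf5 had 44 reads, and 0.48 without control 2, where it had 26. Without both it was 0.24 (limma adjusted p = 0.450, 0.371 and 0.620 in this order). These 2 libraries hold the highest MCAO value and the lowest control value of Atf5, so leaving them out had to lower the change. With any other library left out the change was 0.74 to 0.85. The part of depth was not tested. In MCAO 2 the 44 reads give an exact Poisson interval of 99.4 to 184 scaled reads, above the highest control value. The span of Atf5 (chromosome 7, 44812256 to 44816658) overlaps that of Nup62, a nuclear pore gene, and the sources used here do not say whether counting used strand. Nup62 was at 30.5, 23.1 and 34.7 in controls and at 56.5, 40.4 and 44.0 after MCAO (log2 change 0.66, SE 0.29, adjusted p = 0.232), and reads in the shared stretch could belong to another gene than the one they were counted for. The annotation has a second overlapping gene there, Il4i1b, which was not analysed here.

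Ddit3 (chromosome 10, 127290793 to 127296291), which encodes CHOP, had group means close to each other. It stood at 59.0, 67.4 and 48.3 in controls and at 52.4, 68.4 and 61.3 after MCAO, with the groups fully mixed. The means were 58.2 ± 9.58 and 60.7 ± 8.05, a log2 change of 0.06 (SE 0.24, interval -0.44 to 0.57, adjusted p = 0.918). The direction was not stable: the change was -0.06 without control 3 and -0.03 without MCAO 2. The interval leaves room for a fold of 0.736 to 1.48. Its span overlaps Mbd6 and the methionyl-tRNA synthetase gene Mars in the annotation, and both neighbours had log2 changes near 0 as well, at -0.08 (SE 0.24) and 0.0028 (SE 0.24).

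Besides Ddit3, known targets of ATF4 among the measured genes include Asns and Chac1, and neither was called. Asns (chromosome 6, 7675165 to 7693209), the asparagine synthetase gene whose promoter element is shown above, was at 286, 388 and 232 in controls and at 288, 236 and 289.7 after MCAO. The controls alone spanned the whole range, so the MCAO values all lay inside it. The log2 change was -0.13 (SE 0.19, interval -0.53 to 0.27, adjusted p = 0.751), and it was 0.07 without control 2, the highest library. Chac1 (chromosome 2, 119351242 to 119354326), a glutathione-degrading enzyme gene that is induced through ATF4, was the lowest of the 8 in reads, with 10 to 56 per library. Its values were 16.1, 17.7 and 21.1 in controls and 14.7, 31.1 and 27.3 after MCAO, where MCAO 1 was below every control and the other two were above. The log2 change of 0.34 (SE 0.39, interval -0.51 to 1.18, adjusted p = 0.683) was not precise: a change of 1.54 would have been needed for a call. With that error a smaller rise or fall of Chac1 would not have been called.

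**Figure D2:**
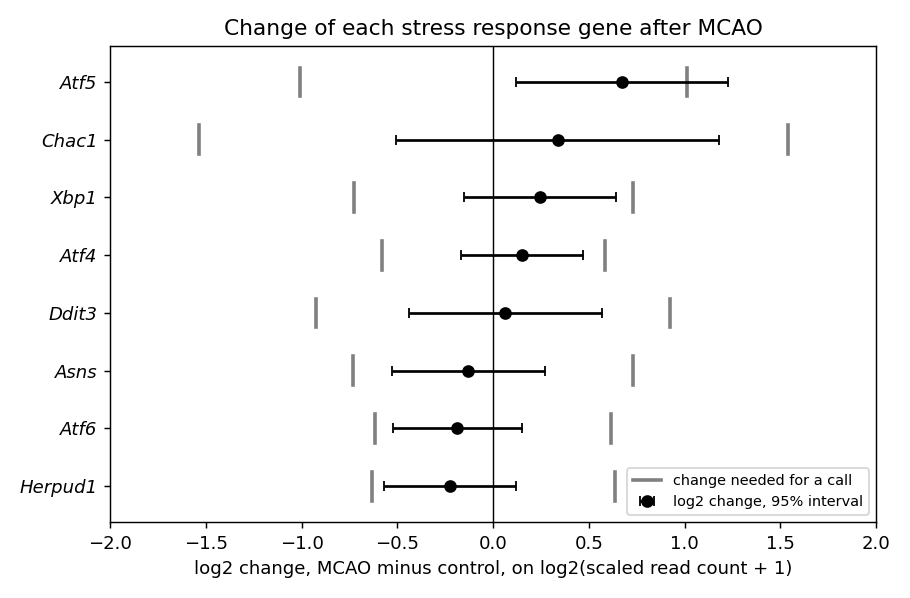
Log2 change after MCAO of each measured gene (x axis, on log2 of scaled read count + 1) with its 95% interval, ordered by size, and grey marks for the change that its error would have needed for a call. Each point lies inside its grey marks, from Herpud1 at -0.23 to Atf5 at 0.67.

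Of the genes tied to the endoplasmic reticulum, Atf6 (chromosome 1, 170704457 to 170868585) encodes the membrane-bound sensor that is cut free to act as a transcription factor. It was at 187, 202 and 229 in controls and at 193, 171 and 177 after MCAO. MCAO 1 fell within the control range and the other two MCAO libraries lay under it. The log2 change was -0.19 (SE 0.16, interval -0.53 to 0.15, adjusted p = 0.544). Xbp1 (chromosome 11, 5520641 to 5525993), whose spliced RNA encodes the factor made active by IRE1, was at 136, 114 and 103 in controls and at 124, 162 and 131 after MCAO. Control 1 lay above both MCAO 1 and MCAO 3, so the groups overlapped (log2 change 0.24, SE 0.19, interval -0.16 to 0.64, adjusted p = 0.503).

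Herpud1 (chromosome 8, 94386429 to 94395371), a membrane protein gene that helps to remove misfolded proteins from the endoplasmic reticulum, carries both a C/EBP-ATF core and the stress response element II in the sequences above. It was at 195, 176 and 172 in controls and at 152, 171 and 141 after MCAO, each MCAO library under each control, with MCAO 2 and control 3 close together. The means of 181 ± 12.1 and 155 ± 15.4 (SD, n = 3 each) gave a log2 change of -0.23 (SE 0.16, interval -0.57 to 0.12, adjusted p = 0.477). Genes lower in all 3 MCAO libraries made up 12.5% of those tested. The 3 measured genes with a C/EBP-ATF core, Asns, Chac1 and Herpud1, thus had log2 changes of -0.13, 0.34 and -0.23.

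How narrow these results are differs between the genes. For 6 of the 8, all but Atf5 and Chac1, the 95% interval excluded a log2 change of 1 in either direction. For Atf5 and Chac1 a change of more than 1 would have been needed for a call. The SD between animals was 4.0% of the mean for Atf4 in controls and 31.5% for Atf5 and 35.2% for Chac1 after MCAO. Counting error alone would give 6.69%, 11.2% and 23.4% in the same cases. An SD from 3 animals is itself imprecise, so these figures are given side by side only.

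The 8 genes were not spread evenly over the libraries. MCAO 2 was the highest of all 6 libraries for 5 of them (Atf4, Atf5, Ddit3, Chac1 and Xbp1), where it was highest for 22.7% of all tested genes and for 21.5% of those with a mean of at least 50. These 5 are also the genes with a positive log2 change, which a highest value in an MCAO library favours. Without MCAO 2 their changes were 0.06, 0.43, -0.03, 0.13 and 0.13 in the same order. Leaving out a gene's highest library must lower its MCAO mean, so these smaller changes follow from how the 5 were picked. MCAO 2 had 882263 recovered reads, the fewest of all libraries, against 9519548 in control 1, and the part of depth in this pattern was not tested. Among 170 tested genes of the wider pathway, described next, MCAO 2 was highest for 24.1%, which is near the share of all genes.

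**Figure D3:**
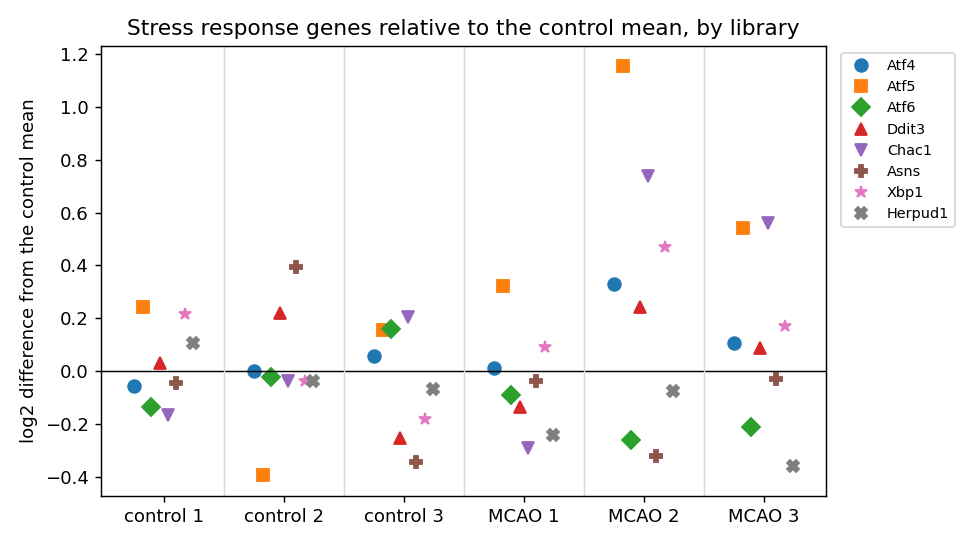
Difference of each gene's log2(scaled read count + 1) from its mean over the controls (y axis), by library (x axis), with 1 symbol per gene. In MCAO 2 the highest symbols are Atf5 at 1.15 and Chac1 at 0.74, while Asns, Atf6 and Herpud1 lie below 0.

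The wider pathway was described by 8 lists with 187 genes, none of them among the 10, of which 170 were tested. Of the 170 genes 4 rose and 1 fell, which is 2.94% called in either direction, beside 3.08% of all tested genes. At an unadjusted p under 0.05 there were 34 of the 170, or 20%, beside 19.3% of all tested genes. Positive log2 changes were found in 66.5% of the 170 and in 48.7% of all tested genes, and the median of the 170 was 0.16. The genes that rose were Nupr1, Pck2, Ppib and Edem1, and Atf7 fell. With no intensity trend in the test Nupr1 alone was called of these 5.

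The kinases that phosphorylate eIF2, with eIF2, its exchange factor and its phosphatases, gave 0 of 19 genes called (2 at an unadjusted p under 0.05), with a median of 0.16 and a range of -0.34 to 0.55. The most abundant were Impact, an inhibitor of the amino acid sensing kinase, at 695 ± 38.6 and 599 ± 152, and the eIF2 subunit gene Eif2s3x, at 485 ± 53.6 and 490.4 ± 30.9. Chosen after its values were seen, Eif2ak3, which encodes the endoplasmic reticulum kinase PERK, was at 75.9 ± 19.2 and 83.6 ± 9.85 (0.16, SE 0.23, adjusted p = 0.748). Ppp1r15a, the stress-induced phosphatase subunit that reverses the phosphorylation, chosen likewise, was at 77.6 ± 2.60 and 97.4 ± 23.5 (0.30, SE 0.21, adjusted p = 0.473). Its MCAO values were 85.9, 124 and 81.9, with MCAO 2 again highest.

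Targets of ATF4 that supply amino acids gave 1 of 31 called, with a median of 0.09 and a range of -1.58 to 0.92. The low end is Slc1a5, named only for that, with 0 reads in MCAO 2 and 10 to 42 in each other library (SE 0.68, limma adjusted p = 0.226). Pck2, the mitochondrial form of phosphoenolpyruvate carboxykinase, stood at 56.4, 60.3 and 46.8 in controls and at 94.7, 115 and 102 after MCAO. It rose by 0.92 (SE 0.21, adjusted p = 0.030), with the groups well apart, but it was called without control 2 and in no other case of 1 library left out (adjusted p 0.0552 to 0.106). The most abundant were the serine synthesis gene Psat1, at 658 ± 110 and 754 ± 139, and the seryl-tRNA synthetase gene Sars, at 655 ± 94.2 and 706 ± 50.3, neither of them called (adjusted p = 0.565 and 0.719).

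Other stress effectors under ATF4 gave 1 of 17 called, with a median of 0.23. Nupr1, a small stress-induced nuclear protein gene, had the strongest result of the pathway. It was at 17.6, 17.7 and 31.7 in controls and at 105, 71.5 and 66.6 after MCAO, a rise of 1.84 (SE 0.31, adjusted p = 0.00456). Each MCAO library lay far above the highest control, and the call held in each of the 18 alternatives tried. Sqstm1, the autophagy receptor gene for p62, was at 1065 ± 69.6 and 1249.7 ± 132 (adjusted p = 0.415), and Map1lc3b, a gene of the autophagosome membrane, at 568 ± 84.7 and 658 ± 82.3. Chosen after its values were seen, the C/EBP gene Cebpd was at 20.1, 10.6 and 13.6 in controls and at 63.5, 21.8 and 99.2 after MCAO (1.79, SE 0.47, limma adjusted p = 0.0581). It was called without MCAO 2, without the 2 shallowest libraries, with library weights, by edgeR and by DESeq2.

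Chaperones and folding enzymes of the endoplasmic reticulum gave 1 of 24 called and 7 at an unadjusted p under 0.05. Their median was 0.26, the highest of the 8 lists. The range was -0.44 to 1.49, and the gene at the high end was not called. Ppib, the secretory pathway cyclophilin, was at 237, 159.7 and 190.1 in controls and at 319, 345 and 356 after MCAO. It rose by 0.81 (SE 0.17, adjusted p = 0.0173). Without control 3 or MCAO 3 the log2 change was 0.80 and 0.78, and it was not called (adjusted p = 0.0562 and 0.0884). Calr, the calcium-binding chaperone calreticulin, was at 1171, 1167 and 1136 in controls and at 1793, 1259.7 and 1794 after MCAO (0.46, SE 0.16, adjusted p = 0.145), all above the controls, with MCAO 2 nearest to them. It was called by DESeq2 (adjusted p = 0.0435), by limma with library weights (0.0137) and by limma without the 2 shallowest libraries (0.00645). These were 3 of the 18 alternatives. In the same list Pdia6 was called by edgeR, by DESeq2, with quantile normalisation and with library weights. Pdia4 was called with library weights and without the 2 shallowest libraries. Canx was at 1493 ± 213 and 1447 ± 244. Chosen after its values were seen, Hspa5, the main chaperone BiP and a standard readout of the unfolded protein response, was at 686, 605 and 670.0 in controls and at 823, 572 and 852 after MCAO. MCAO 2 was the lowest of all 6 libraries for Hspa5 and the other two MCAO libraries were the highest (0.18, SE 0.17, adjusted p = 0.593).

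Factors for degradation from, and transport into, the endoplasmic reticulum gave 1 of 33 called and 8 at an unadjusted p under 0.05, with a median of 0.16. Edem1, which marks misfolded glycoproteins for degradation, was at 51.8, 40.8 and 51.3 in controls and at 86.5, 93.3 and 89.9 after MCAO. It rose by 0.90 (SE 0.22, limma adjusted p = 0.0392), yet it was not called with any 1 of the 6 libraries left out (adjusted p 0.0699 to 0.129). The most abundant was the segregase gene Vcp, at 827 ± 164 and 994 ± 104. Sensors of endoplasmic reticulum stress and their processing enzymes gave 0 of 16 (3 at an unadjusted p under 0.05), with a median of -0.02. In that list Tmbim6 was at 1906 ± 415 and 1859 ± 327, and Nfe2l1, a membrane-anchored transcription factor gene, at 1653 ± 81.5 and 1509.8 ± 86.7.

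The mitochondrial unfolded protein response, to which ATF5 is tied, gave 0 of 12 called (2 at an unadjusted p under 0.05), with a median of 0.14 and 10 positive log2 changes. The chaperonin gene Hspd1 was at 553 ± 84.9 and 713 ± 58.9 (0.37, SE 0.15, adjusted p = 0.200), its groups not overlapping, and Hspa9 was at 907 ± 177 and 972 ± 151. Relatives of the ATF, CREB and C/EBP factors were the only list besides the sensors with a negative median, at -0.17. Of 18 tested 1 was called: Atf7, a factor of the ATF2 subfamily, was at 112, 126 and 131 in controls and at 63.5, 71.5 and 75.9 after MCAO, and fell by 0.80 (SE 0.19, adjusted p = 0.0375). It was not called with any 1 library left out (adjusted p 0.0671 to 0.118). Jund was at 249.5 ± 42.8 and 284 ± 53.0, and Dbp at 381 ± 123 and 315 ± 71.0. Without the 2 shallowest libraries Dbp was called lower by limma (log2 change -0.70, adjusted p = 0.0123), and it was not called in the 17 other alternatives.

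**Figure D4:**
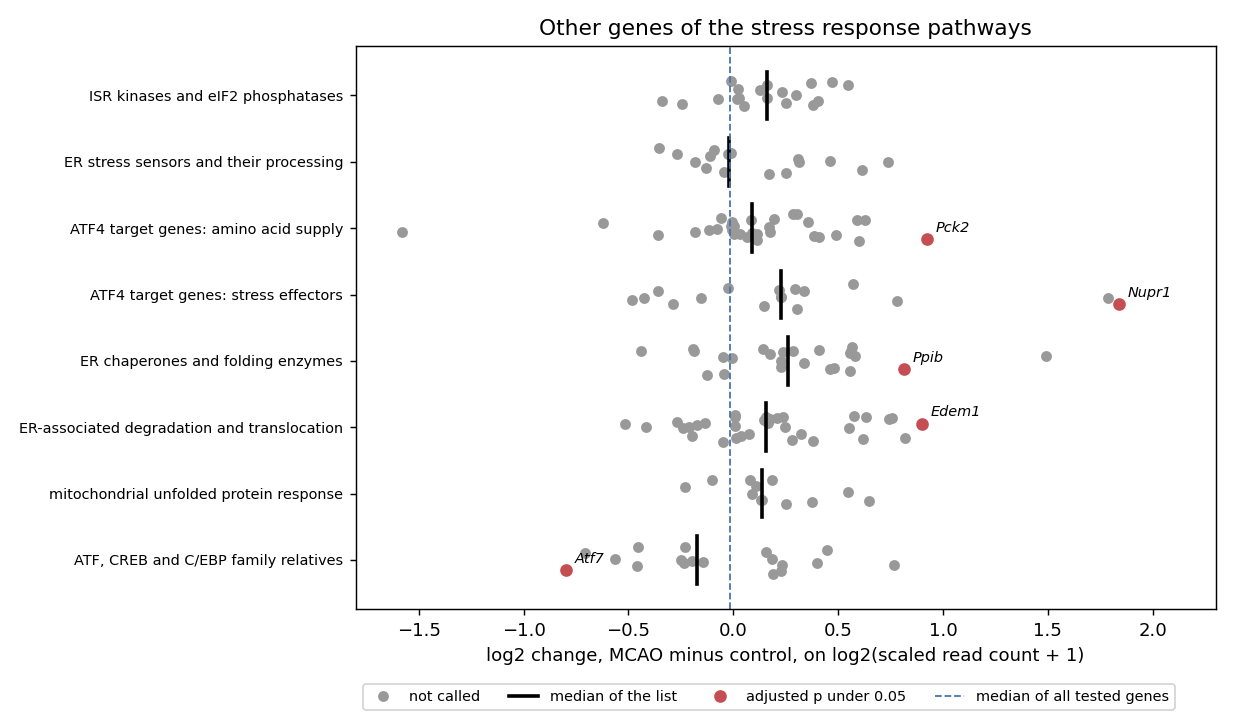
Log2 change after MCAO (x axis) of each tested gene in the 8 pathway lists (rows), with black bars for list medians, red points for the 5 genes at an adjusted p under 0.05 and a dashed line for the median of all tested genes, -0.01. Nupr1 lies farthest to the right at 1.84 and Atf7 is the 1 called gene on the left.

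Markers of other cell types differed in the same libraries. Summed over 18 microglia markers the level was 812 to 1050.2 in controls and 2722 to 3668 after MCAO, and 12 of the 18 rose. The summed level of 15 oligodendrocyte markers was 8925 to 10085 and 13229.8 to 16649, with 7 of 15 risen. That of 18 astrocyte markers was 42275 to 74429.8 and 40274 to 52616, with 0 called by limma (5 at an unadjusted p under 0.05). Of these 18 astrocyte markers 4 had a positive log2 change, and their median was -0.24. Over all tested genes the share was 48.7% and the median -0.01. Blood myeloid markers were 3 of 18 in the table, Lyz2, Csf3r and Fn1, and all 3 rose. Ccr2, Ly6c2, S100a8, S100a9 and Ly6g were among those not in the table, so a rise of blood cells cannot be read from these 3. Neuronal markers, 16 of 16 in the table, summed to 34114 to 40625 and 32334 to 37505, so RNA of neurons was present in both groups. Endothelial markers were 7 of 14 in the table, summing to 110 to 134 and 99.9 to 134, with 0 called by limma (0 at an unadjusted p under 0.05). No marker in the table stood at the table's lowest value of 1 in every library. The part of these cells in the rises of Nupr1, Pck2, Ppib and Edem1 was not tested, and in bulk samples fewer cells of a type and less RNA per cell cannot be told apart.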

How the data were processed

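Ribosome-bound polyA RNA of 6 mouse brain libraries was sequenced, 3 per group. The deposited table holds a normalised signal, which per its values is reads per gene divided by 1 factor per library, with values under 1 listed as 1. The submitters' processing notes name mm10, CASAVA 1.8, HISAT2 2.0.11, Partek 6.6, DESeq2 and R 3.3.1, without saying what each did. How reads were counted, by which strand and with which gene filter is not stated there. Above 1, at least 99.95% of each column's values were whole multiples of its own step (tolerance 0.1 read), taken as recovered reads. Recovered reads numbered 882263 to 9519548 per library. Columns left unmapped numbered 0.

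limma 3.58.1 (R 4.3.3, intensity trend, two-sided) was run on log2(value + 1) for 12549 genes (mean of at least 10), with Benjamini-Hochberg adjustment and calls at 0.05. The change needed for a call is the SE times the quantile at the largest p called, 0.00153. Alternatives were edgeR 4.0.16 and DESeq2 1.42.0 on recovered reads, other pseudocounts, filters, normalisations and moderation, and each library left out, with the filter recomputed. The fits were tested on simulated data. Poisson intervals cover counting error only.

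The genes and lists were chosen with earlier results of these data known. Named genes are the 10 of the rule and, of each pathway list, up to 3 called genes per direction and the 2 most abundant; 1 gene so named is not reported here. Genes nearest in profile were to be named for called members only, and there were 0. Gene positions and promoters are from RefSeq on GRCm38.p6. Replicate numbers follow record order and only name libraries.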

Additional observations from a re-analysis of the deposited data

How the results depend on the processing

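None of the 8 measured stress genes was called under any of the 18 alternatives; Chac1 had no value at a mean of at least 50. The count of all called genes, 387, was 157 with no intensity trend and 1002 with library weights, and 144 to 304 with 1 library left out. The 2 alternatives with library weights or without the 2 shallowest libraries were chosen after seeing the data. The 5 calls in the pathway lists became 1 with no intensity trend (Nupr1), 8 by DESeq2, 9 without the 2 shallowest libraries and 16 with library weights, and 1 to 3 with 1 library left out. The cause of these differences was not tested, and leaving out a library also makes a group smaller. Changes not called that turned sign were those of Asns (0.16), Map1lc3b (-0.0013) and Jund (-0.075) without the 2 shallowest libraries. With 1 library left out the changes ranged from -0.063 to 0.17 for Ddit3, -0.30 to 0.067 for Asns, -0.046 to 0.11 for Eif2s3x, -0.22 to 0.11 for Tmbim6, -0.17 to 0.079 for Canx and -0.018 to 0.26 for Hspa9. No paired analysis was possible because the labels give no number, litter or day that pairs a control with an MCAO animal. Reads were fewest for Chac1, Ddit3 and Atf5, with 10, 22 and 26 in the library where each had least.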
